A study of Homo sapiens with 3 samples.

Results

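The 566 genomic regions described here are sites where RNA polymerase II (Pol II) was called in vehicle-treated LNCaP cells, where no Pol II region was called nearby after the CK2 inhibitor TBBz, and where the kinase subunit CK2α was called close by. They were chosen from 3 deposited lists of ChIP-seq regions, which hold 59983 regions in all. A region of the DMSO list was taken when no TBBz region had its centre within 2000 bp and a CK2α region had its centre within 1000 bp. This left 566 of the 21819 DMSO regions. The missing TBBz call and the presence of the CK2α call are therefore the rule itself and not results.

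LNCaP is an androgen-responsive line of human prostate carcinoma cells. The labels give passages 40 to 45, and the cells were kept for 3 days in medium with 5% hormone-depleted serum before treatment. The TBBz library, made with an antibody to Pol II, came from cells given 25 μM TBBz for 2.5 h with 100 nM of the androgen dihydrotestosterone (DHT) during the last 1.5 h. The DMSO library was made with the same antibody from cells given vehicle, labelled as 25 μM DMSO, for 2.5 h with 100 nM DHT during the last 1.5 h. The CK2α library came from cells given 100 nM DHT without TBBz; its label gives 2.5 h of DHT, while the treatment protocol gives 90 min. All 3 groups thus carried DHT, and no group without it is used here. The source label of both Pol II libraries mentions TBBz, so the groups follow the treatment labels; whether the libraries could have been exchanged was not tested. Each group is 1 library of 1 cell line. No spread between replicates is known, no test between conditions can be made, and the 95% intervals below cover counting error only.

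Pol II transcribes protein-coding genes, and in ChIP-seq it gathers in narrow peaks at active promoters and enhancers and spreads more thinly along transcribed genes. CK2 is a serine/threonine kinase built of catalytic subunits, of which CK2α is one, and regulatory β subunits, and its many substrates include proteins of the transcription machinery. TBBz is a brominated benzimidazole that competes with ATP for the catalytic site, and DHT is the natural ligand of the androgen receptor on which LNCaP cells depend.

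Per the file headers, the TBBz library held 22345614 tags, with 12.6% of them in 24782 listed regions. The DMSO library held 15466579 tags, with 6.79% in 21819 regions, and the CK2α library 19021404 tags, with 1.65% in 13382 regions. Each library had been filtered on its own for sites that stood 4-fold above the surrounding 10 kb, without a control library. The deposited score is 1 at every region, so it carries no strength. The order of the lists does. In each list the regions run in blocks, and within a block the chromosomes run in order from 1 to Y, as they would among regions tied at the same number of tags. Tag numbers were recovered by counting 1 tag per block, with the lowest number set so that the sum came closest to the total tags in regions that the header gives. The sums were then 0.165% short of that total for DMSO, 0.965% for CK2α and 0.0125% for TBBz, but the fit makes them close, so this is no check of the reading. The lowest tag number came out 3 below the header's threshold in all 3 lists, a value the fit did not use. The reading thus put 3.02% of TBBz, 2.98% of DMSO and 6.05% of CK2α regions below the threshold, although they were listed. The cause of this was not tested. These recovered tag numbers, a reading of the lists chosen after the data were seen, are the measure of strength below; tag numbers given by the authors for single regions were not at hand to check them. A block missed near the top of a list makes numbers there too low, so the values of the 86 regions whose CK2α partner stood among the first 3030 places of its list are lower bounds for CK2α; 3030 is the shortfall of that list in tags.

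Most of the 566 regions were weak Pol II sites. Their median was 14 recovered tags (95% interval 13 to 14), with quartiles of 12 and 19 and a range of 9 to 96. The 2476 vehicle-only regions without CK2α nearby had a median of 12 tags. The 9796 DMSO regions that had both CK2α nearby and a TBBz partner had a median of 62 tags. Of the 566 regions, 136 stood at or below 11 tags, the header's threshold, and 38 of these were below it. Another 180 stood at 12 to 14 tags. A further 163 had 15 to 24 tags, 87 had 25 or more and 18 had 50 or more. None reached 100 tags, a level that 1560 of the DMSO regions with CK2α nearby passed. The TBBz threshold of 13 tags corresponds to 8.998 tags at the depth of the DMSO library. For 216 of the 566 regions the whole Poisson interval of the tag number, raised to the depth of the TBBz library, lay above 13 tags. For the rest, a missing TBBz call is not distinguishable at this depth from a site near the threshold. The interval covers the DMSO tags only and not the counting error of the TBBz library, and the regions were chosen for a missing call. It therefore does not settle the missing calls of the 216 either. The header's second filter, on the surrounding 10 kb, also decides which sites are listed, and its part in a missing call was not tested.

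Across the DMSO list 3042 of 21819 regions, or 13.9%, had no TBBz centre within 2000 bp. Among the 10362 regions with CK2α nearby this share was 5.46%, and among the 11457 without CK2α nearby it was 21.6%. Read at equal tag numbers, the gap was much smaller. At 11 tags the share was 49.7% with CK2α nearby (98 of 197, 95% interval 42.6% to 56.9%) and 56.0% without (599 of 1070, 52.9% to 59.0%). At 14 tags it was 31.1% with CK2α nearby (47 of 151) and 35.9% without (215 of 599). At 20 to 24 tags it was 9.31% with CK2α nearby (46 of 494) and 10.6% without (101 of 952). The share was lower with CK2α nearby in 11 of the 12 ranges of tag number and slightly higher, 5.43% against 4.65%, at 25 to 34 tags. Had the regions with CK2α nearby lacked a TBBz partner as often as the regions without CK2α at the same tags, they would have numbered 680.5. The 566 counted are 0.832 of that number (0.765 to 0.903, from the Poisson interval of the count). This ratio depended on which CK2α regions were counted as nearby. It was 0.985 (0.884 to 1.09) when CK2α had to overlap the Pol II region. It turned to 1.27 (1.12 to 1.45) when the upper 50% of the CK2α list alone was used and regions near weaker CK2α calls joined the other side, so no direction holds across the settings. Most of the distance between 5.46% and 21.6% went with the tag numbers of the 2 kinds of region.

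**Figure D1:**
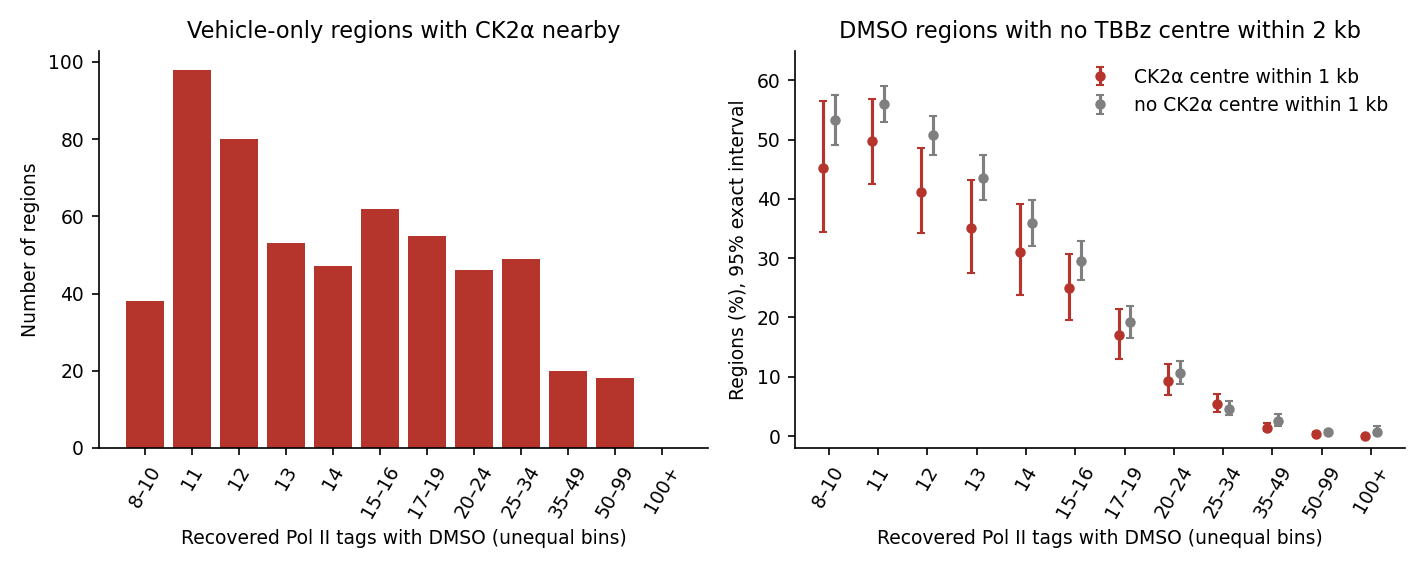
The left panel counts the 566 vehicle-only regions with CK2α nearby by recovered Pol II tags in bins of unequal width; the tallest bar, at 11 tags, holds 98 regions. The right panel shows the percentage of DMSO regions with no TBBz centre within 2 kb, with CK2α nearby in red and without CK2α in grey, with 95% exact binomial intervals; both fall steeply with the tag number, with the red points lower in 11 of the 12 bins.

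The strongest of the 566 regions lay on chromosome 19. Region chr19:676284-676484 (build hg19) held 96 Pol II tags (95% Poisson interval 77.8 to 117), which would be 139 tags at the depth of the TBBz library. Its CK2α partner, 139 bp away, held at least 101 tags. The nearest TBBz region lay 3980 bp away with 283 tags, beside a DMSO region 3998 bp away with 126 tags. Region chr19:2273721-2273921 held 89 Pol II tags (71.5 to 110), with a CK2α region of at least 103 tags centred 23 bp away and a TBBz region of 192 tags 3048 bp away. Region chr19:51383399-51383599 also held 89 Pol II tags, with CK2α at 30 bp and at least 54 tags, and its nearest TBBz region was 7194 bp away. Each of these 3 had a TBBz region within 10 kb. The overlap of these regions with genes was not analysed here, since no annotation of build hg19 was at hand.

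Outside chromosome 19, region chr10:42392632-42392832 held 79 Pol II tags (62.5 to 98.5) and shared its centre base with a CK2α region of at least 80 tags. It lay beside a stretch of at least 2 Mb without any listed region. Region chr15:84864428-84864628 held 66 Pol II tags, with 27 CK2α tags centred 1 bp away, and its nearest TBBz region, 2348 bp away, was itself weak at 19 tags. Region chr17:8130351-8130551 held 61 Pol II tags and had one of the strongest CK2α partners, at least 102 tags centred 31 bp away. Its nearest TBBz region lay 3960 bp away with 209 tags, and the DMSO region there, at 3967 bp, had 50 tags.

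Region chr6:43636020-43636220 differed from the other strong regions. It held 64 Pol II tags, its CK2α partner lay 884 bp away, and both the nearest TBBz region (234 tags) and the nearest other DMSO region (63 tags) lay over 19 kb away, at 19366 and 19372 bp. Region chr2:131094753-131094953 paired 55 Pol II tags with only 15 CK2α tags, at 268 bp. Region chrY:13255118-13255318 held 62 Pol II tags with at least 54 CK2α tags at 118 bp, and had no other DMSO region within 10 kb.

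Of the 15 strongest regions, 6 were on chromosome 19, 12 overlapped their CK2α partner, and 13 had a TBBz region within 10 kb. In 7 of the 15, the nearest TBBz region and the nearest other DMSO region lay within 200 bp of each other, so that the neighbouring Pol II site was listed in both libraries. The remaining members of this group, on chromosomes 3, 6, 19 and 22, held 53 to 62 Pol II tags.

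CK2α was called close to most of the 566 regions and rarely more than once. The median distance between centres was 139 bp (123 to 156), and 350 of 566 regions (61.8%) overlapped their CK2α partner by at least 1 bp. In 142 regions (25.1%) the centres lay within 50 bp, in 40 within 10 bp, and in 4 at the same base. A single CK2α region lay within 1000 bp of 545 regions, and 2 lay there in 21. The partner lay at the higher coordinate in 293 regions and at the lower in 269, so neither side of the reference strand was preferred beyond counting error.

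Among the 9796 regions with a TBBz partner and CK2α nearby, the median distance to CK2α was longer, 220 bp (214 to 226), and 46.7% overlapped. The difference was not present among weaker regions. Among regions of 24 or fewer tags, the median distance was 148 bp (128 to 165) in 479 vehicle-only regions and 150 bp (136 to 169) in 1365 regions with a TBBz partner. The overlapping share was 59.1% in the vehicle-only regions of that strength and 57.2% in those with a partner. Centres within 50 bp were found in 23.6% of these vehicle-only regions and in 27.3% of those with a partner. The intervals of the median distance overlapped almost entirely in these weaker regions, whose median was 13 Pol II tags in the vehicle-only group and 17 in the group with a partner.

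**Figure D2:**
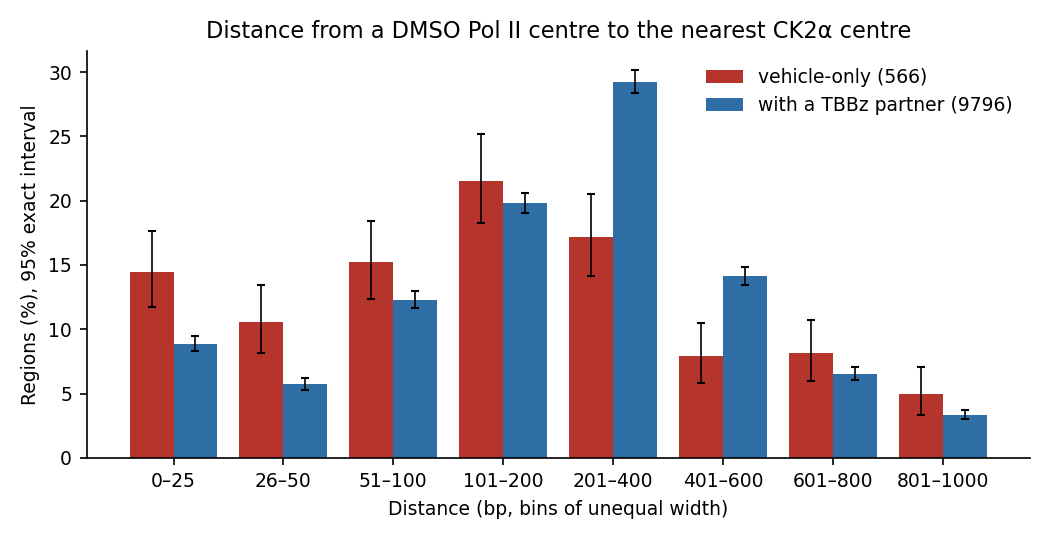
The bars give the percentage of regions by distance in bp from the Pol II centre to the nearest CK2α centre, for the 566 vehicle-only regions in red and the 9796 DMSO regions with a TBBz partner in blue, with 95% exact binomial intervals. The 566 regions gather below 100 bp, where 40.3% of them lie against 26.9% of the regions with a partner, across all tag numbers.

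Over all tag numbers, the CK2α partners of the 566 regions were weaker than those of regions kept under TBBz. The gap in Pol II tags was wider, but the rule requires a missing TBBz call, which was more common at low Pol II tags. The partners had a median of 16 recovered tags (16 to 17; quartiles 14 and 24; range 10 to 130), against 21 tags (21 to 21) for regions with a TBBz partner. Scaled to 10000000 library tags, the 566 regions had a median of 9.05 Pol II tags and 8.41 CK2α tags. Regions with a TBBz partner had a median of 40.1 Pol II tags and 11.04 CK2α tags. The scaled CK2α tags exceeded the Pol II tags in 224 of the 566 regions (39.6%, 35.5% to 43.7%), and in 407 of 9796 regions with a TBBz partner (4.15%). At 24 or fewer Pol II tags this held for 44.7% of 479 vehicle-only regions and 23.7% of 1365 regions with a partner; there the CK2α partners had a median of 15 tags in both groups, beside the differing Pol II medians of 13 and 17 tags given above. The efficiency of the 2 antibodies is not known here, so these values rank sites within a library and do not compare the amount of the 2 proteins.

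Pol II and CK2α tags rose together over the 566 regions, with Spearman's rho of 0.65. The points share 2 libraries, the local filter and in part the same CK2α regions, so the value is a description. In 9796 regions with a TBBz partner rho was 0.51. Of the 566 regions, 18 had 50 or more Pol II tags and 21 had 50 or more CK2α tags, and 12 had both. A few regions left this pattern and are named here for their values. Region chr19:50490264-50490464 had 15 Pol II tags beside at least 130 CK2α tags at 239 bp, the highest of any partner, and its nearest TBBz region at 38218 bp. Region chr14:36004693-36004893 had 11 Pol II tags beside at least 107 CK2α tags at 225 bp, with the nearest TBBz and DMSO regions 130923 and 130882 bp away. Region chr22:50924238-50924438 had 38 Pol II tags beside at least 115 CK2α tags at 104 bp. In all, at least 6 of the 566 regions had a CK2α partner with 100 or more tags, and 37 had 14 or fewer Pol II tags beside 20 or more CK2α tags.

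**Figure D3:**
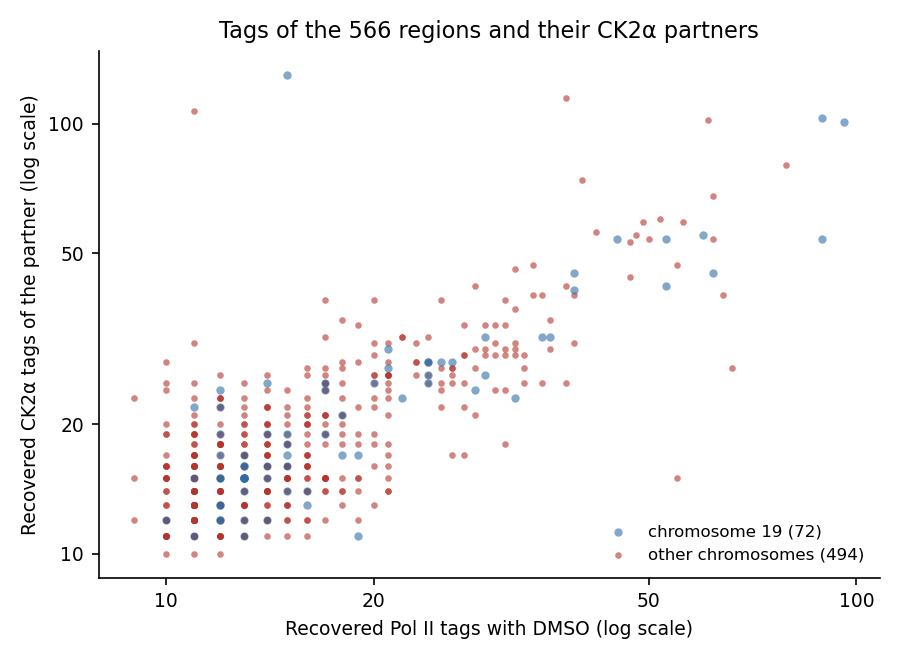
Each point is 1 of the 566 regions, with recovered Pol II tags in the DMSO library across and recovered tags of its CK2α partner upward, both on log scales, and the 72 regions of chromosome 19 in blue. The mass of points lies near 14 Pol II and 16 CK2α tags, and the points at 11 and 15 Pol II tags with over 100 CK2α tags stand apart.

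The 566 regions used 531 different CK2α regions, since 34 CK2α regions were the nearest of 2 or more members, 69 in all. In 16 of these 34 the CK2α centre lay between its Pol II regions. The Pol II regions around a shared CK2α region spanned a median of 709 bp (505 to 1703). Their nearer member overlapped CK2α in 26 of 34 cases. These members are not independent of each other. The densest example was on chromosome 7, where chr7:26252535-26252735, chr7:26253530-26253730 and chr7:26254238-26254438, with 14, 20 and 12 Pol II tags, flanked a single CK2α region of 22 tags at 966, 29 and 737 bp. Their nearest TBBz region lay 11217 to 12920 bp away with 305 tags.

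Windows of 100 kb with more than 1 member were few. In 4 windows there were 3 members, in 51 there were 2, and in 452 there was 1. One of the 4 was the window on chromosome 7. At the start of chromosome 19, the window from 500001 to 600000 held chr19:558858-559058 and chr19:559758-559958, with 14 and 12 Pol II tags around 1 CK2α region of 12 tags, and chr19:584396-584596 with 53 Pol II and at least 42 CK2α tags. The next window held chr19:614039-614239, with 15 Pol II and 14 CK2α tags, and the strongest region of all, chr19:676284-676484. The windows on chromosomes 1 and 5 held weak members of 11 to 16 Pol II tags, and the members on chromosome 1 lay beside a stretch without listed regions. Another of the 566 regions lay within 10 kb of 15.7% of them. Of the 2476 vehicle-only regions without CK2α, 12.3% had one of their own kind as near. The sets differ in size, which by itself changes such a share, so the 2 values cannot be compared directly. The 15.7% fell to 5.04% when CK2α had to lie within 500 bp and to 2.86% when it had to overlap, since pairs around a shared CK2α region then drop out. The median distance to the next one was 539 kb (424 to 670.1).

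TBBz regions lay nearer to the 566 regions than to other vehicle-only regions. The nearest TBBz centre was at a median of 13.7 kb (12.4 to 15.1) from the 566 regions and 18.9 kb (18.0 to 19.9) from the 2476 vehicle-only regions without CK2α. Within 10 kb, a TBBz region was listed for 199 of the 566 (35.2%, 31.2% to 39.3%) and for 26.4% of the others. For 495 of the 566 regions, the nearest TBBz region itself had a DMSO partner. This was not counted for other vehicle-only regions, so it is not shown to be particular to the 566. The nearest other DMSO region had a TBBz partner for 74.9% of the 566 and 75.1% of the 2476. The intervals of the median distance to TBBz were apart among the weakest regions and overlapped among stronger ones. With 8 to 14 Pol II tags, the median distance was 16.1 kb (14.4 to 18.2) with CK2α nearby and 21.0 kb (19.5 to 22.6) without. With 15 to 24 tags it was 13.2 kb (11.9 to 15.05) with CK2α and 15.9 kb (14.05 to 18.3) without, and with 25 or more tags 8.27 kb (6.81 to 10.4) with CK2α and 8.47 kb (6.67 to 12.3) without.

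Stronger members more often had a TBBz region close by. Of the 87 regions with 25 or more tags, 51 (58.6%, 47.6% to 69.1%) had a TBBz region within 10 kb, against 97 of 316 (30.7%, 25.7% to 36.1%) with 14 or fewer tags. The same order held in vehicle-only regions without CK2α, with 54.8% at 25 or more tags and 23.97% at 14 or fewer. The filter on the surrounding 10 kb works on the same scale, and its part in this was not tested.

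The Pol II sites kept beside the 566 regions had more tags under TBBz. The 184 DMSO regions that had a TBBz centre within 200 bp and lay within 10 kb of one of the 566 had a median log2 ratio of TBBz to DMSO tags, each per library total, of 0.81 (0.67 to 0.93). The ratio was 0.81 (0.72 to 0.86) for 492 such regions beside vehicle-only regions without CK2α, and 0.77 (0.76 to 0.78) for all 16112. The sites beside the 566 regions were therefore not set apart in this ratio. It was low for weak sites, 0.13 at 8 to 14 DMSO tags (0.10 to 0.16, n = 1867), and 0.90 at 25 or more tags (n = 11787). Weak sites enter this count only if they passed the TBBz threshold as well. Over the whole libraries, 12.6% of TBBz tags and 6.79% of DMSO tags lay in listed regions. With 1 library per group, an effect of TBBz on the ratio cannot be told apart from a difference between the libraries.

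Other vehicle-treated Pol II regions were also close. Another DMSO region lay within 10 kb of 46.3% of the 566 regions (42.1% to 50.5%) and of 31.9% of vehicle-only regions without CK2α. Within 1 kb this held for 71 of the 566 (12.5%) and for 3.76% of those without CK2α. For 65 of the 566 another member lay within 1 kb, so most of these neighbours were members themselves. The pairs around a shared CK2α region described above are among them. Over all 21819 DMSO regions the shares were 39.2% within 10 kb and 13.2% within 1 kb, and over regions with a TBBz partner and CK2α nearby 39.6% and 17.1%. Within 10 kb the 566 regions were thus above all DMSO regions, and vehicle-only regions without CK2α were below them. The shares within 1 kb cannot be set against all DMSO regions in this way. A neighbour that close with its own TBBz region mostly brings a TBBz centre within 2000 bp, and the rule leaves such regions out. The shares within 10 kb include this part. With 8 to 14 tags the shares within 10 kb were 40.2% with CK2α nearby and 28.99% without, and those within 1 kb were 11.4% with CK2α and 3.15% without. Regions with no other DMSO or TBBz region within 50 kb made up 8.66% of the 566 and 17.2% of the others. The most isolated was chr11:41315504-41315704, with 12 Pol II tags, a CK2α region of 11 tags 148 bp away and the nearest TBBz region at 485668 bp. Isolated members were not all at the threshold. Region chr5:99440010-99440210 had 17 Pol II tags and 24 CK2α tags 9 bp away, with the nearest TBBz region at 431012 bp. Region chr15:22514376-22514576 had 20 Pol II and 23 CK2α tags 10 bp apart, with the nearest TBBz region at 318851 bp.

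**Figure D4:**
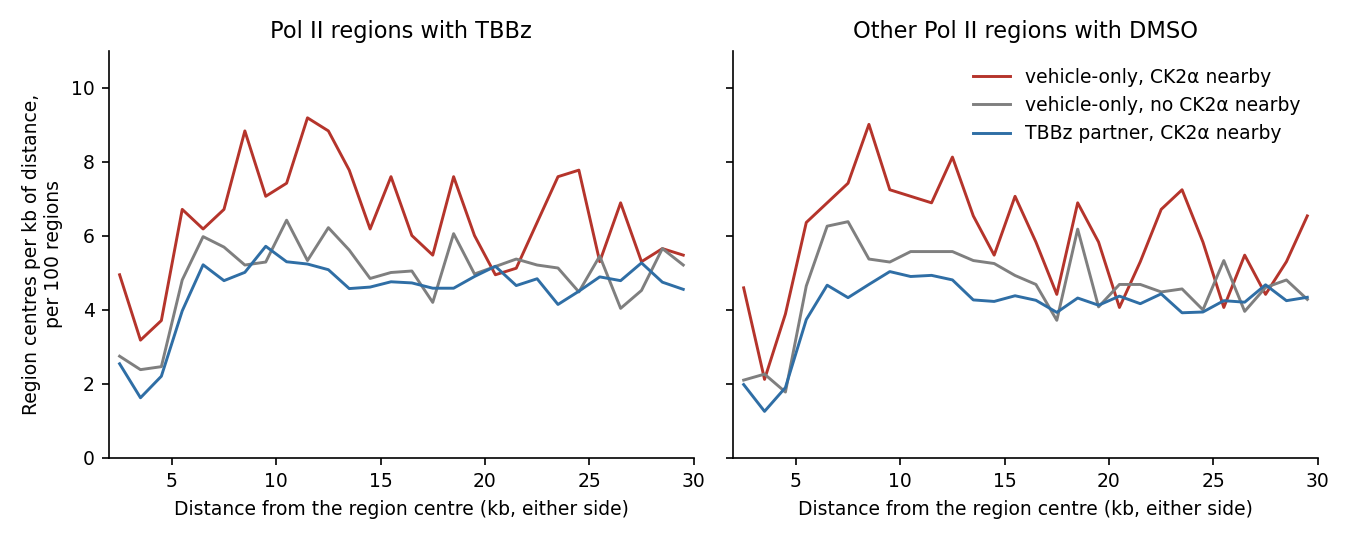
The lines give the number of other region centres per kb of distance, both sides together, per 100 regions, from 2 to 30 kb from the 566 vehicle-only regions with CK2α nearby (red), the vehicle-only regions without CK2α (grey) and the DMSO regions with a TBBz partner and CK2α nearby (blue); TBBz regions are on the left and other DMSO regions on the right. All 3 lines are lower from 3 to 5 kb than from 5 to 8 kb, and at 5 to 6 kb the red line stands at 6.71 TBBz and 6.36 DMSO centres per 100 regions.

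Chromosome 19 held 72 of the 566 regions, more than any other chromosome. This comparison was chosen after the data were seen. On chromosome 19, 34.3% (27.9% to 41.1%) of the 210 vehicle-only regions had CK2α nearby, against 17.4% (16.1% to 18.9%) of the 2832 on all other chromosomes together and 18.6% over the whole genome. CK2α was not called near Pol II more often there: 48.1% of all DMSO regions of chromosome 19 and 47.4% of those elsewhere had CK2α nearby, with 47.5% over all. The shares that lacked a TBBz partner are given first over all tag numbers. With CK2α nearby, 10.0% of chromosome 19 regions lacked a TBBz partner (7.92% to 12.4%), against 5.12% elsewhere. Without CK2α nearby the share was 17.8% (15.2% to 20.7%) on chromosome 19 and 21.9% elsewhere. This last order did not hold within ranges of tag number, as given below.

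With CK2α nearby, the higher share on chromosome 19 was present at each strength. With 8 to 14 tags and CK2α nearby, 31 of 45 regions of chromosome 19 lacked a TBBz partner (68.9%, 53.4% to 81.8%), against 285 of 732 elsewhere (38.9%, 35.4% to 42.6%). With 15 to 24 tags the counts were 23 of 68 on chromosome 19 (33.8%, 22.8% to 46.3%) and 140 of 999 elsewhere (14.01%, 11.9% to 16.3%). With 25 or more tags they were 18 of 606 on chromosome 19 (2.97%, 1.77% to 4.65%) and 69 of 7912 elsewhere (0.872%, 0.679% to 1.10%). At the shares of the other chromosomes for the same tags, 30.2 such regions would have been counted on chromosome 19, so the 72 were 2.38 times that number (1.86 to 3.00). The next highest ratios were 1.29 on chromosomes 8 and 17, with intervals that held 1. Without CK2α nearby the shares of chromosome 19 were also above those elsewhere in each range, by less. They were 55.8% on chromosome 19 against 48.7% elsewhere at 8 to 14 tags, 20.3% against 19.2% at 15 to 24, and 3.10% against 1.96% at 25 or more. The ratio without CK2α was 1.17 (0.984 to 1.38). Set against regions without CK2α at the same tags of the same chromosome group, regions with CK2α had a ratio of 1.45 (1.14 to 1.83) on chromosome 19 and 0.783 (0.715 to 0.855) elsewhere. On chromosome 19 this rested on regions of 24 or fewer tags, since at 25 or more the shares were 2.97% with CK2α and 3.10% without. The intervals of both ratios leave out the counting error of the comparison shares, which on chromosome 19 came from 138 vehicle-only regions among 775. With the upper 50% of the CK2α list the ratios were 2.96 on chromosome 19 and 1.16 elsewhere, so their order held while the side of 1 did not.

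The 72 regions were spread along chromosome 19. The first stretch of 5 Mb held the most members (14), and also the most vehicle-only regions (35) and DMSO regions (209). All 12 stretches held at least 1 of the 72 regions. They had a median of 15 Pol II tags (14 to 19) and 19 CK2α tags (16 to 24), against 14 Pol II tags (13 to 14) and 16 CK2α tags (16 to 17) in the 494 regions elsewhere. Their CK2α centres lay at a median of 129 bp (101 to 170), against 142 bp (123 to 158) elsewhere. Of these regions, 44.4% had a TBBz region within 10 kb (32.7% to 56.6%), against 33.8% of those elsewhere (29.6% to 38.2%). Kept sites of chromosome 19 also had a higher ratio of TBBz to DMSO tags, a median log2 ratio of 0.96 (0.91 to 0.99, n = 1122) against 0.77 over all chromosomes, and the part of that difference in the missing calls was not tested. Besides the strong regions above, chr19:17976597-17976797, with 45 Pol II and at least 54 CK2α tags, and chr19:7750796-7750996, with 39 Pol II and at least 45 CK2α tags, were picked from the list for their strength. Each lay 5 to 6 kb from a TBBz region, of 250 and 269 tags.

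**Figure D5:**
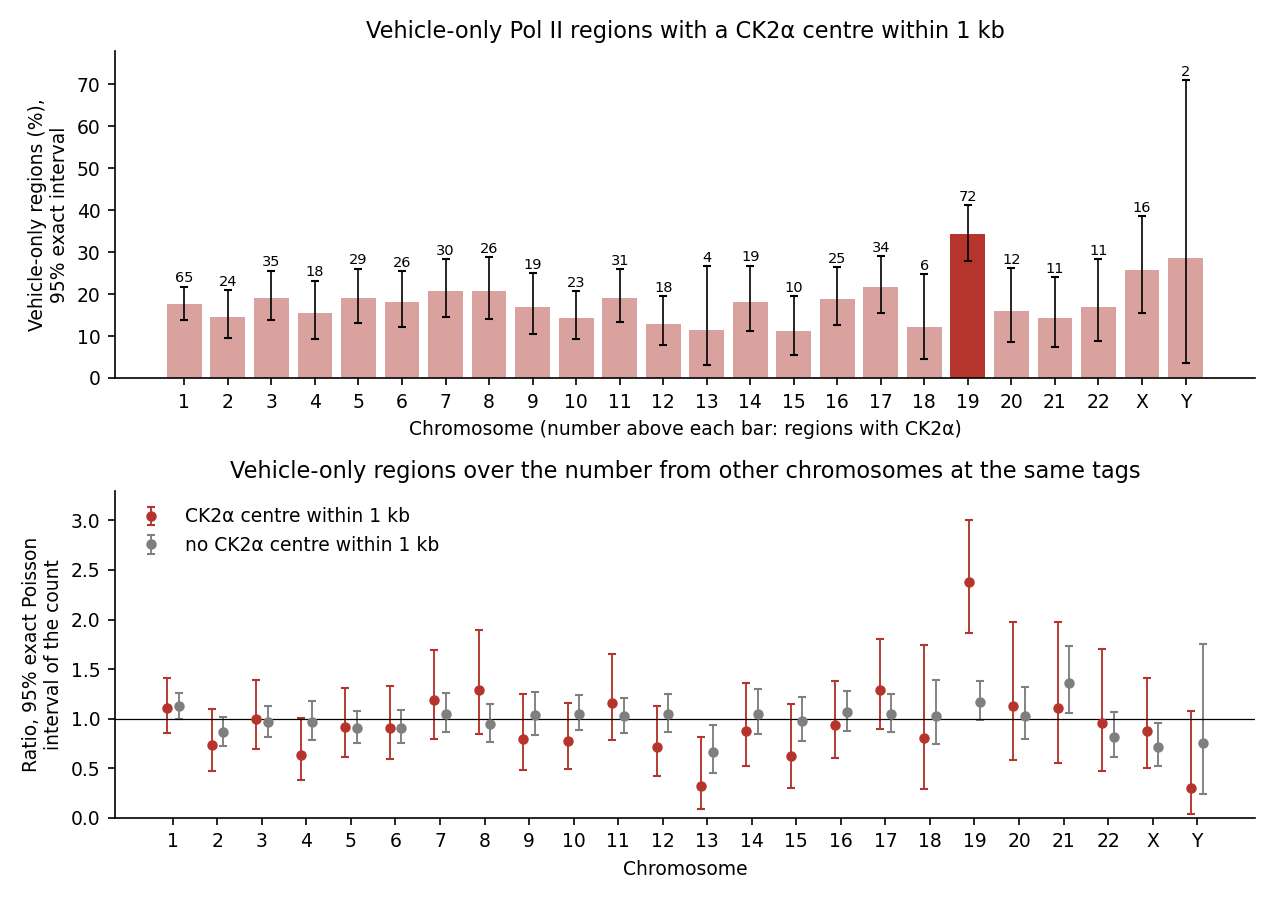
The upper panel gives the percentage of vehicle-only regions that have CK2α nearby on each chromosome, with 95% exact binomial intervals and the number of such regions above each bar. The lower panel gives vehicle-only regions counted over the number from the shares of the other chromosomes at the same tags, with CK2α nearby in red and without it in grey; the red point of chromosome 19, at 2.38, stands above all others.

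The regions on either side of each limit were as follows. The members nearest to a TBBz centre, chr4:190895834-190896034, chr11:58912295-58912495 and chr12:58160593-58160793, lay 2020, 2024 and 2051 bp from it with 11, 29 and 16 Pol II tags. The DMSO regions just left out, chrX:149108524-149108724, chr16:70694270-70694470 and chr1:153620530-153620730, lay at 1997, 1989 and 1982 bp with 27, 14 and 62 tags. At the limit for CK2α, the last members, chr6:42665069-42665269, chr2:28826660-28826860 and chr16:75260011-75260211, lay 997, 995 and 991 bp from CK2α with 11, 13 and 31 Pol II tags, and the first vehicle-only regions beyond it, at 1004, 1011 and 1037 bp, had 11, 19 and 10 tags.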

How the data were processed

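ChIP-seq regions were read from 3 deposited lists, 1 each for Pol II with TBBz, Pol II with DMSO and CK2α. Alignment with Bowtie, peak calling with HOMER and the build hg19 are given per the submitters' processing notes, with no version given in the sources used here. Peak calling by the authors, per the file headers, was done per library in the factor style at a false discovery rate of 0.001, with peaks 200 bp wide and at least 500 bp apart and fragments of 150 bp, with tag thresholds of 13 (TBBz), 11 (DMSO) and 12 (CK2α). The local filter then removed 13517 of 38299 candidates for TBBz, 25346 of 47165 for DMSO and 42856 of 56238 for CK2α. Such calling favours point-like sites over broad Pol II signal. The deposited score is 1 for every region and was not used. No column of per-sample values was left unused.

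The members and lists were chosen with earlier results of these data known. Centres were the midpoints of deposited start and end; printed starts were raised by 1. Distances run between centres. Tag numbers were recovered from the order of each list: a new block began wherever the chromosome order went back, each block was 1 tag above the next, and the lowest tag number was set so that the sum came closest to the header's total. On a simulated list of dense tag numbers the method returned the planted lowest number; it needs lists with few gaps between tag numbers. Shares have exact Clopper-Pearson intervals, medians exact order-statistic intervals and tag numbers exact Poisson intervals, all at 95%; tags of PCR copies are not independent. Ratios at equal tags apply the share of the comparison regions in 12 tag ranges to the regions in question. Their intervals are the Poisson interval of the count over that number and leave out the counting error of the comparison shares, so they are too narrow. Named regions are the 15 strongest by list place, the 5 farthest from TBBz, the 5 nearest to CK2α, the members of the 5 windows of 100 kb with most members, and the 3 on either side of each threshold; others named are said to be picked for their values. The tools were Matplotlib 3.10.9, SciPy 1.17.1, pandas 2.3.3 and NumPy 2.4.6, under Python 3.11.15. Genes, transcription starts, base composition and motifs were not analysed here, since the reference tables at hand are of another build.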

Additional observations from a re-analysis of the deposited data

How the results depend on the processing

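No paired analysis was possible because no group holds more than 1 library. Of the ratios at equal tags, the one of regions with against without CK2α nearby reversed, to 1.27 over all chromosomes and 1.16 without chromosome 19, in the upper 50% of the CK2α list; the ratio of chromosome 19 to the others stayed between 2.03 and 5.09, and the TBBz distance of members over that of vehicle-only regions without CK2α between 0.653 and 0.807. Correlations, tag ratios of TBBz to DMSO and comparisons by tag range were not rerun. The values on tags and on chromosome 19, and all ratios, were added after seeing the data. The values moved little without DMSO regions within 1 Mb of stretches without regions, a setting added after seeing the data. The same held on chromosomes 1 to 22 and X and with starts raised by 1. Every value with an interval stayed inside that of its main value. The number of regions, which has no interval, was 511, 564 and 566 in this order, and the distance ratio 0.730, 0.727 and 0.727. Moves in the number of regions, and in values that a setting itself limits, came by construction. The cause of the moves in the ratios at equal tags was not tested. Requiring overlap with CK2α left 350 regions (11.5% of vehicle-only; 22.9% on chromosome 19 and 10.7% elsewhere), at a median place of 17152.5 in the DMSO list and 15 tags, 64 bp from CK2α, with another member within 10 kb of 2.86%; the ratios with against without CK2α were 0.985, and 0.921 without chromosome 19. With CK2α within 500 bp, the share was 15.6% (14.6% off chromosome 19), the CK2α distance 109 bp, and 5.04% had another member within 10 kb. The upper 50% of the DMSO list left 32 regions (47.8% of vehicle-only; 71.4% on chromosome 19 and 41.5% elsewhere), at a median place of 8399.5 and 52.5 tags, 105 bp from CK2α, 4.98 kb from TBBz, with CK2α partners at place 699.5; 78.1% had another DMSO region, 6.25% another member and 81.3% a TBBz region within 10 kb, and the ratios were 0.498 with against without CK2α, 0.392 without chromosome 19 and 5.09 on chromosome 19. The upper 50% of the CK2α list left 239 regions (7.86%; 18.1% on chromosome 19 and 7.10% elsewhere), at place 14934 and 20 tags, 11.998 kb from TBBz, with partners at place 3720.0; 54.8% had another DMSO region, 19.7% another member and 39.3% a TBBz region within 10 kb, and the ratio within chromosome 19 was 2.96. The cause of the reversal was not tested. The main values of the 2 places were 17779 and 7643. A TBBz distance of 1000 bp gave 12.1 kb to TBBz and 41.7% within 10 kb; 5000 bp gave 15.6 kb, 27.8%, and 41.3% with another DMSO region. Shortening the TBBz list to the length of the DMSO list gave 16.2 kb and 28.9%. Planned settings on transcription starts and base composition were not run, for want of a genome and annotation of hg19. Tag numbers near 11 limit what a missing TBBz call can show.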

Other observations

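The strength of the CK2α partner also ordered the DMSO regions. Where the nearest CK2α region stood among the first 10% of its list, 2.41% (33 of 1369) lacked a TBBz partner, against 8.29% (52 of 627) in the last 10%. The highest share, 11.1% (104 of 934), stood at 60% to 70% of the CK2α list. Pol II and CK2α tags are correlated over these regions, and this order along the CK2α list was not redone at equal Pol II tags. The ratios at equal tags given above went the other way. The ratio with against without CK2α nearby was 0.832 (0.765 to 0.903) with the whole CK2α list. It was 1.27 (1.12 to 1.45) when only the upper part of that list counted as nearby. The comparison side then also held regions without any CK2α nearby, so stronger and weaker partners were not compared directly.

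The sites kept under TBBz differed by chromosome in their median log2 ratio of TBBz to DMSO tags per library total. It was 1.08 on X (0.99 to 1.15, n = 440), 0.96 on chromosome 19 and -0.08 on Y (-0.29 to 0.10, n = 61). The median DMSO tags of these sites were 34 on X, 49 on chromosome 19 and 25 on Y, against 48 over all. The ratio varied with DMSO tags, and the chromosomes were not compared at equal tags. On X, 16 of 62 vehicle-only regions had CK2α nearby (25.8%, 15.5% to 38.5%), and on Y 2 of 7. On chromosome 13, 4 vehicle-only regions with CK2α nearby were counted where the shares of the other chromosomes at the same tags gave 12.6, and 31 without CK2α where they gave 46.7.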
